A study of Arabidopsis thaliana with 18 samples.

Results

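Seedlings of the Arabidopsis thaliana mutant nlp2 that had been starved of nitrogen and then given nitrate back were compared with nlp2 seedlings that had never been starved. The question put to each gene was whether its transcript level after resupply was back at the never-starved level, past it or still away from it. The comparison used 6 of the 18 RNA sequencing libraries of the series, 3 labelled nlp2_T30 and 3 labelled nlp2_ctrl, which were taken by title and paired by replicate number. Both groups carry nlp2-2, a single T-DNA insertion allele of AT4G35270 (NLP2) that the labels call a knock-out, and both were whole seedlings from liquid culture. The nlp2_T30 seedlings spent 3 days without nitrogen and then received 3 mM nitrate over a period the labels write as 30 with no unit, and they are given as 13 days old. The nlp2_ctrl seedlings were untreated and are given as 10 days old. Starved nlp2 seedlings sampled before nitrate (nlp2_T0, 3 libraries) and the wild type Col-4 under the same treatments (Col4_T30 and Col4_ctrl, 3 libraries each) are set beside them where a result needs them. The change from nlp2_ctrl to nlp2_T0 is called the starvation change here, although age differs there too. Age, nitrogen history and handling differ together between nlp2_T30 and nlp2_ctrl and cannot be told apart. The recorded planting and harvest dates lie 12 days apart in all 6 libraries, which differs from both stated ages.

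Between 16426932 and 24499680 reads were counted in each of the 6 libraries, and 23573 to 23999 gene models had a read. The first principal component held 70.6% of the variance of these libraries and separated the groups. The 10 most abundant gene models took 3.3% to 4.25% of the reads in nlp2_T30 and 4.88% to 6.44% in nlp2_ctrl. None of the 6 seed storage genes checked passed the filter on low counts, and markers of both shoot and root were present in every library. NLP2 itself was measured at 8.49, 16.8 and 13.5 CPM (scaled read counts per 1000000 reads) in the nlp2_T30 libraries and at 3.62, 9.40 and 8.48 CPM in the nlp2_ctrl libraries, with overlap between the groups. All 9 nlp2 libraries lay between 3.62 and 16.8 CPM for this gene, below the 24.2 to 50.0 CPM of the 6 Col4_T30 and Col4_ctrl libraries, so the gene had fewer reads in the mutant but was not at 0.

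Nitrate is both a nutrient and a signal for plants. It enters root cells through transporters of the NRT1 and NRT2 families, and it is reduced to nitrite by nitrate reductase and to ammonium by nitrite reductase in steps that consume reducing power, after which glutamine synthetase and glutamate synthase build it into amino acids. NIN-like proteins (NLPs), transcription factors with an RWP-RK domain, act early in the signal, and NLP7 is known to bind nitrate itself. When nitrate reaches starved plants, genes for uptake, reduction and reductant supply are among the first known to respond, a change called the primary nitrate response.

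Of 21347 genes tested, 5016 were higher (23.5%) and 4723 were lower (22.1%) in nlp2_T30 than in nlp2_ctrl. Together these are 45.6% of the genes. The threshold was an adjusted p of 0.05 in edgeR's quasi-likelihood F-test, with the replicate number as a block and Benjamini-Hochberg adjustment over all genes. Each log2 fold change is followed by ± its standard error, while ± after a mean CPM is the SD of 3 libraries. At a fold change of at least 2, 1342 of these genes were higher and 1262 lower. Because a missed call does not show that a gene is back, a second test asked whether the difference was bounded. By it, 7920 genes (37.1%) were held within 1.5-fold of the never-starved level and not called different, and 3688 (17.3%) were neither called nor held. A further 2510 genes (11.8%) were bounded within 1.5-fold and also called. They count as called and not as held, so a call alone does not mean a large difference. The median log2 fold change over all genes was 0.03. The sign was the same in all 3 replicate pairs for 9420 of the 9739 called genes and for 12889 of all genes tested.

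**Figure D1:**
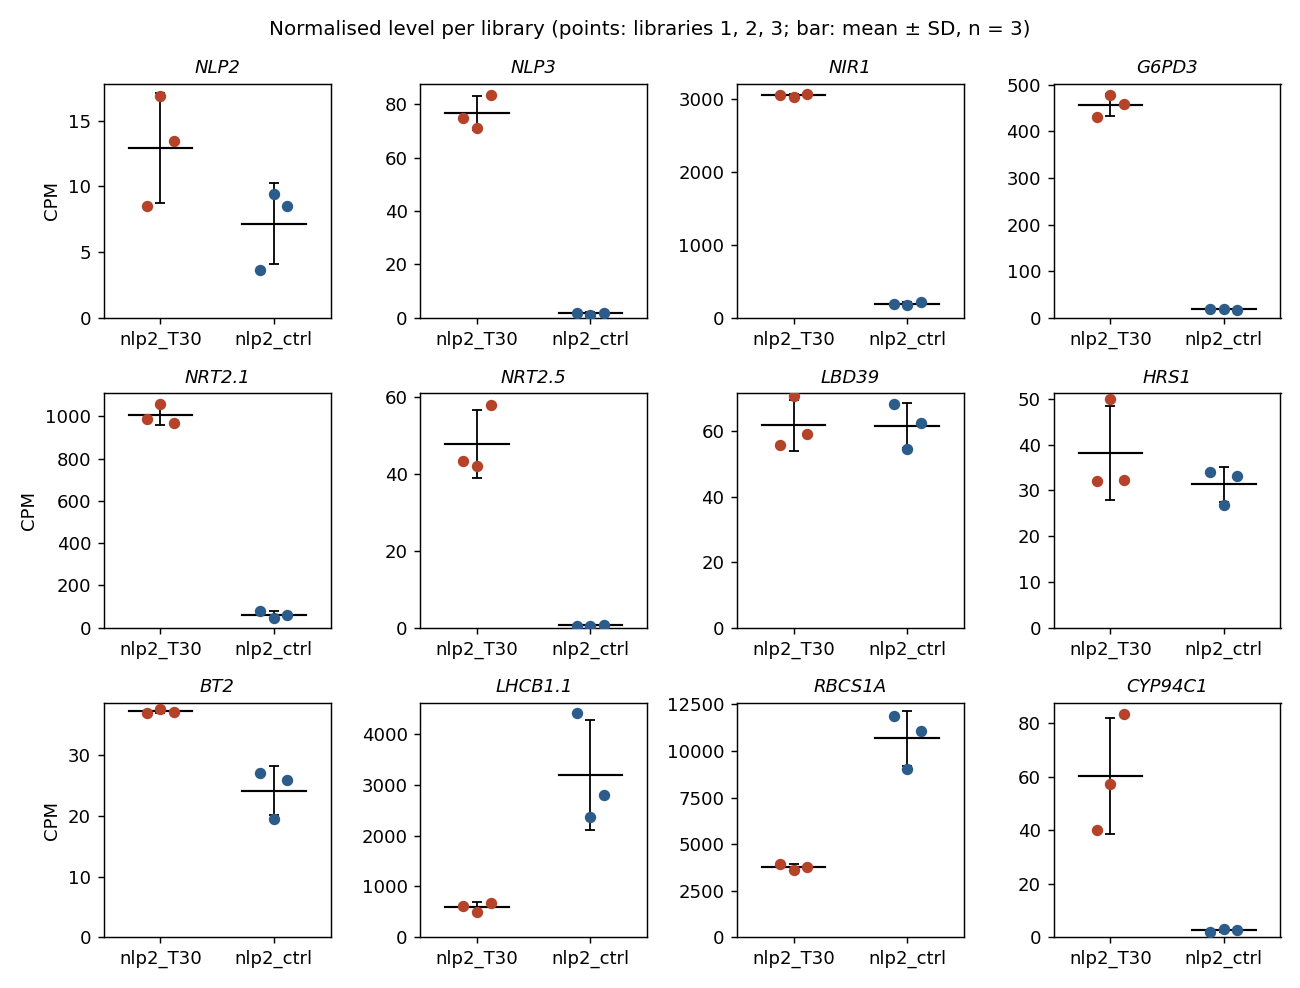
Levels in CPM (linear axes from 0) of 12 genes in each nlp2_T30 and nlp2_ctrl library, as points with mean ± SD (n = 3). LBD39 and HRS1 overlap between the groups, LHCB1.1 and RBCS1A lie lower in all 3 nlp2_T30 libraries, and the other genes apart from NLP2 lie higher.

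The family of NIN-like proteins was largely higher after resupply. Of its 9 members, 7 were called higher and none lower (background 23.5% and 22.1%), with a median log2 fold change of 0.66. In nlp2_T0 over nlp2_ctrl 7 were called higher too (median 1.28, background 19.0% of all genes). Between nlp2_T0 and nlp2_T30, 3 were called higher and 4 lower (background 11.8% and 12.6%). NLP3 stood out, with 74.9, 71.2 and 83.6 CPM in nlp2_T30 against 1.97, 1.22 and 1.70 CPM in nlp2_ctrl. Every resupplied library lay far above every never-starved one, and the log2 fold change was 5.55 ± 0.11 (adjusted p = 4.37e-16). NLP3 had already risen by 3.74 ± 0.12 on the log2 scale in nlp2_T0 and rose by a further 1.82 ± 0.08 between nlp2_T0 and nlp2_T30. NLP8, known for nitrate-dependent seed germination, took another course than NLP3. It averaged 18.9 ± 1.35 CPM in nlp2_T30 and 7.11 ± 2.46 CPM in nlp2_ctrl, a difference of 1.41 ± 0.16, but stood at 42.0 ± 2.65 CPM in nlp2_T0. The gene had thus come down from its starved level without reaching the never-starved one. NLP4, NLP5 and NLP9 had also been raised in nlp2_T0, by 1.28 ± 0.19, 1.52 ± 0.09 and 1.73 ± 0.22. All of them were called lower in nlp2_T30 than in nlp2_T0, and NLP5 remained above nlp2_ctrl by 0.54 ± 0.09. NLP7, the nitrate sensor, was higher by 0.66 ± 0.07 and NLP1 by 1.07 ± 0.08, with no overlap between groups in either. NLP6, the closest relative of NLP7, was held within 1.5-fold at 0.01 ± 0.08, with 38.4 to 48.1 CPM in nlp2_T30 and 40.1 to 45.3 CPM in nlp2_ctrl. NLP4 was called higher at 0.56 ± 0.20 (adjusted p = 0.0319), but without nlp2_T30 replicate 1, its highest library at 59.9 CPM, the value was 0.35 and the adjusted p 0.163. The call was also lost without nlp2_ctrl replicate 1 (0.44, adjusted p = 0.163), without nlp2_ctrl replicate 3 (0.58, adjusted p = 0.0691) and with no filter on low counts (0.53, adjusted p = 0.0565). NLP9 had a log2 fold change of -0.30 ± 0.26 and was neither called nor held. NLP2 differed by 0.86 ± 0.20 (adjusted p = 0.00268), with the higher value in nlp2_T30 in 3 of 3 pairs.

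The high-affinity nitrate uptake genes NRT2.1, NRT2.2, NRT2.4, NRT2.5 and NRT3.1 were far above the never-starved level. NRT2.6 was not called, but without nlp2_ctrl replicate 2 it was called lower at -1.09 (adjusted p = 0.00732). NRT2.7 was called higher, a call lost without nlp2_T30 replicate 3 (0.58, adjusted p = 0.0504). Nitrate transport genes as a whole moved in both directions. Of 22 nitrate transport genes, 10 were higher and 7 lower (23.5% and 22.1% of all genes), and the median was 0.18. NRT2.1, the main high-affinity carrier of the root, had 989, 1058 and 969.9 CPM in nlp2_T30 against 80.4, 47.5 and 58.3 CPM in nlp2_ctrl, a log2 fold change of 4.03 ± 0.33 (adjusted p = 1.41e-06). Its partner NRT3.1, which NRT2 proteins need at the membrane, had 482, 462 and 436 CPM in nlp2_T30 against 56.7, 42.5 and 53.7 CPM in nlp2_ctrl and differed by 3.18 ± 0.10. Neither gene overlapped between the groups, and the higher values were all in nlp2_T30. NRT2.2, the neighbour and near copy of NRT2.1, had 1748 reads in the 3 nlp2_T30 libraries and 0 in the 3 nlp2_ctrl libraries, which makes it at least 611-fold higher when 3 reads over the group are taken as the floor. Reads that fit both copies equally well were removed before counting, so the levels of this pair are uncertain.

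NRT2.4 and NRT2.5 are carriers known for uptake in nitrogen-starved plants. NRT2.4 had 75.1, 57.4 and 70.6 CPM in nlp2_T30 against 1.65, 1.78 and 1.22 CPM in nlp2_ctrl, a difference of 5.46 ± 0.17 (adjusted p = 2.38e-13), and had climbed by 2.43 ± 0.13 since nlp2_T0. NRT2.5 had 43.4, 42.2 and 58.1 CPM in nlp2_T30 against 0.480, 0.556 and 0.743 CPM in nlp2_ctrl, a difference of 6.31 ± 0.20 (adjusted p = 3.07e-13). It stood at 64.7 ± 5.47 CPM in nlp2_T0 and was lower than that in nlp2_T30 by a log2 change of -0.45 ± 0.12. NRT1.1, a carrier that is also a nitrate receptor, was higher by 2.19 ± 0.09, the remobilisation carrier NPF2.13 by 2.62 ± 0.24 and the anion channel gene SLAH3 by 1.21 ± 0.11. On the lower side were NPF7.3, which loads nitrate into the xylem, at -0.76 ± 0.09, NPF6.2 at -0.86 ± 0.10 and CLC-A, which carries nitrate into the vacuole, at -0.77 ± 0.07. CLC-A had been lowered by starvation (-1.54 ± 0.07) and had recovered by 0.76 ± 0.07 since nlp2_T0 without reaching the never-starved level. NPF4.6, a carrier of nitrate and abscisic acid, was held within 1.5-fold, and so was AT3G16180, a major facilitator superfamily gene that was called higher at 0.24 (adjusted p = 0.0396) without nlp2_ctrl replicate 3.

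The windows of 250 bases before the annotated starts of NRT2.1, NRT2.4 and NRT2.5 are shown because these 3 genes carry the uptake result and because proteins of the HRS1 (NIGT1) family are known to bind GAATC and GAATATTC and to repress NRT2 genes. The sequences are from RefSeq (TAIR10.1), written 5′ to 3′ on the gene's strand, with GAATC or its reverse complement, and GAATATTC, in capitals. NRT2.1 is on chromosome 1 (window chr1:2523773-2524022, plus strand), NRT2.4 on chromosome 5 (chr5:24444115-24444364, plus strand) and NRT2.5 on chromosome 1 (chr1:4416065-4416314, plus strand), and no window overlaps another tested gene.
NRT2.1: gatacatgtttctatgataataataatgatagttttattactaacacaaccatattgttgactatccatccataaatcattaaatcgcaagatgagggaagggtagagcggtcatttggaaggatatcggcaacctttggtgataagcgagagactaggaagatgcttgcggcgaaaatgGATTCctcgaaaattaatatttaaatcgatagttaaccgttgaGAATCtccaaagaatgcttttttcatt
NRT2.4: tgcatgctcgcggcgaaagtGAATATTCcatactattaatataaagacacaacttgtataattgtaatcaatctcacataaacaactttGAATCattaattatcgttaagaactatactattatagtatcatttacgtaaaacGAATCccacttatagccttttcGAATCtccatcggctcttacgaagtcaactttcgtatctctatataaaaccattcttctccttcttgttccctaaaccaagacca
NRT2.5: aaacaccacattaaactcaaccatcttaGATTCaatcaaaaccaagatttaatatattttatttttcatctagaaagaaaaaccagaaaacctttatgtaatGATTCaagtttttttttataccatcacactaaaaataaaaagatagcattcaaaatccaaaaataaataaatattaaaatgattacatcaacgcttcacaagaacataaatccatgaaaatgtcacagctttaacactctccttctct
The windows hold 2 matches of GAATC for NRT2.1, 3 for NRT2.4 and 2 for NRT2.5, on either strand. The match of GAATATTC is 1, in NRT2.4, and these letters do not contain GAATC or its complement. GAATC occurs in 39% of the 21222 windows of this length before tested genes and GAATATTC in 0.862%. A match is a description of the letters and not evidence of binding.

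Genes for the reduction of nitrate and nitrite were well above the never-starved level. Of 16 genes for nitrate and ammonium assimilation, 12 were higher and 3 lower (background 23.5% and 22.1%), with a median of 1.13. NIR1, which encodes nitrite reductase, had 3053, 3030 and 3059 CPM in nlp2_T30 against 189, 181 and 215 CPM in nlp2_ctrl, a log2 fold change of 3.97 ± 0.10 (adjusted p = 4.04e-15). The 3 resupplied libraries were nearly equal, and the lowest of them was far above the highest never-starved one. NIR1 had been lowered in nlp2_T0 to 52.1 ± 1.87 CPM, so it had been below the never-starved level before nitrate and was well past it afterwards. The nitrate reductase gene NIA1 had 1630, 1898 and 1843 CPM in nlp2_T30 against 143, 136 and 137 CPM in nlp2_ctrl (3.69 ± 0.09). The second nitrate reductase gene, NIA2, had 3286, 3358 and 3724 CPM in nlp2_T30 against 621, 739.9 and 963 CPM in nlp2_ctrl (2.17 ± 0.10). Neither overlapped between groups. UPM1, an enzyme in the synthesis of the sirohaem cofactor of nitrite reductase, differed by 3.42 ± 0.08.

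A short stretch of NIR1 is shown because it holds the nitrate-responsive element, the sequence through which NLPs are known to act on this gene. The letters searched were GACNCTT, 10 further bases of any kind and AAG. On both strands from 250 bases before to 150 bases after the annotated start, NIR1 was the only match among the 26 assimilation and reductant genes. The site lies on chromosome 2 (chr2:6810454-6810483, plus strand, TAIR10.1), 65 to 84 bases after the annotated start of the gene and before its first coding base, and the fixed letters are in capitals.
NIR1: aacttGACcCTTtacattgctcAAGagctc
The same letters occur in 47 of 21222 tested genes (0.221%) in such windows. The stretch after the start was added to the search when the 250 bases before it gave no match for NIR1, and absence of these letters says nothing about other NLP sites.

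The enzymes that handle ammonium moved in both directions. Among the cytosolic glutamine synthetases, GLN1.4 had 175, 176 and 161 CPM in nlp2_T30 against 18.1, 10.6 and 16 CPM in nlp2_ctrl, a difference of 3.54 ± 0.15 (adjusted p = 3.23e-11), and GLN1.1 differed by 1.37 ± 0.10. Both had been raised in nlp2_T0 (4.07 ± 0.15 for GLN1.4 and 1.73 ± 0.10 for GLN1.1). The chloroplast enzyme GLN2 went the other way, with 1018, 915 and 971 CPM in nlp2_T30 against 1627, 1218 and 1498 CPM in nlp2_ctrl (-0.57 ± 0.07). For glutamate synthase, the NADH-dependent GLT1 was higher by 2.01 ± 0.10 while the ferredoxin-dependent GLU1 was lower at -0.62 ± 0.07. ASN2, an asparagine synthetase, had 324, 317 and 319 CPM in nlp2_T30 against 64.9, 66.0 and 60.4 CPM in nlp2_ctrl (2.33 ± 0.09), after a starvation change of -1.21 ± 0.09. ASN1 had a value of 0.90 ± 0.47 and was not called (adjusted p = 0.143).

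Reductant supply genes gave the highest median of the 22 lists tested. Of 10 genes, 8 were higher, 1 was lower and 1 was held (background 23.5%, 22.1% and 37.1%). The median was 2.85 in nlp2_T30 over nlp2_ctrl against -0.04 in nlp2_T0 over nlp2_ctrl. G6PD3, a plastid glucose-6-phosphate dehydrogenase that opens the oxidative pentose phosphate pathway, had 432, 478 and 458 CPM in nlp2_T30 against 18.3, 19.4 and 16.4 CPM in nlp2_ctrl. The difference was 4.66 ± 0.08 (adjusted p = 1.11e-16), with no overlap. G6PD2, of the same type, differed by 3.00 ± 0.10. RFNR2, a root-type ferredoxin NADP reductase, had 813, 733 and 751 CPM in nlp2_T30 against 71.9, 50.2 and 52.2 CPM in nlp2_ctrl (3.73 ± 0.11), and RFNR1 differed by 3.3 ± 0.09. FD3, a root-type ferredoxin that passes electrons to nitrite reductase, had 553, 466 and 463 CPM in nlp2_T30 against 79.2, 75.3 and 71.9 CPM in nlp2_ctrl (2.71 ± 0.07). Of the genes annotated as 6-phosphogluconate dehydrogenase family proteins, AT5G41670 differed by 3.29 ± 0.07 and AT1G64190 by 1.82 ± 0.07. G6PD1, the plastid isoform known from photosynthetic tissue, was the exception at -1.47 ± 0.08, and it had been lowered by starvation already (-1.10 ± 0.08). PGL3 was held within 1.5-fold at 0.10 ± 0.06.

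Organic acid genes, which supply the carbon skeletons for amino acids, were higher in 10 of 14 cases and held in the other 4. Among all genes 23.5% were higher and 37.1% held. The median of the list was 0.55. PPC3, a phosphoenolpyruvate carboxylase, averaged 167 ± 2.78 CPM in nlp2_T30 and 31.8 ± 5.10 CPM in nlp2_ctrl (2.4 ± 0.13), and PPC2 differed by 1.37 ± 0.11. The cytosolic fumarase FUM2 was higher by 1.85 ± 0.17, whereas its mitochondrial relative FUM1 was held at -0.10 ± 0.07. TDT, the malate carrier of the vacuole, differed by 1.3 ± 0.10. The cytosolic isocitrate dehydrogenase cICDH was held at 0.01 ± 0.06.

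**Figure D2:**
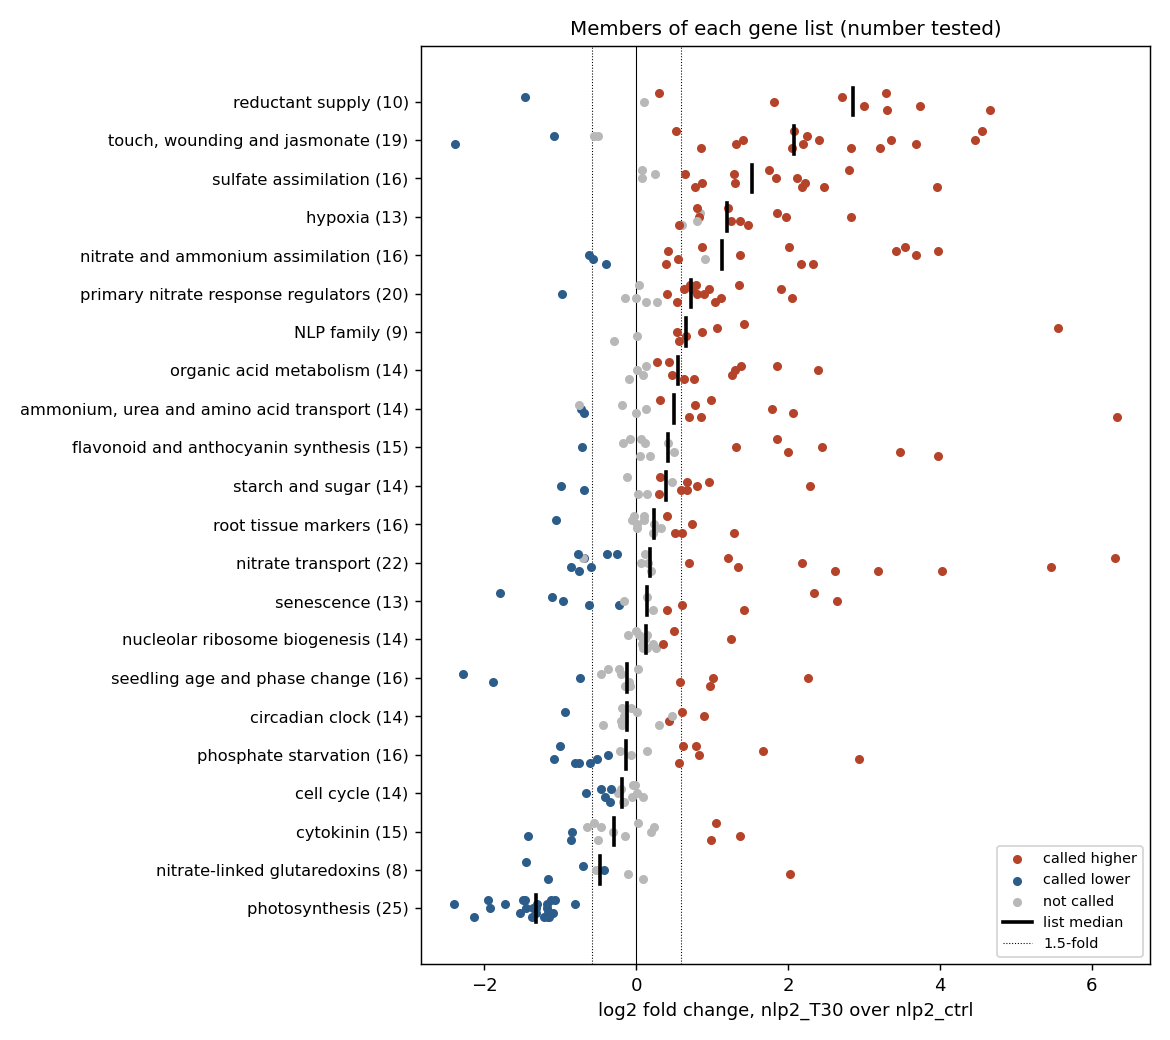
Log2 fold change of nlp2_T30 over nlp2_ctrl for every tested member of 22 gene lists, coloured by call, with the list median as a bar and the 1.5-fold bounds dotted. The reductant list has the highest median (2.85) and the photosynthesis list the lowest (-1.32). NRT2.2 is not drawn, since its reads in nlp2_ctrl were 0.

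Regulators of the primary nitrate response had mostly returned to the never-starved level or gone past it. Of 20 genes, 14 were higher, 1 was lower and 4 were held within 1.5-fold (background 23.5%, 22.1% and 37.1%). Their median was 0.72 in nlp2_T30 over nlp2_ctrl. In nlp2_T0 over nlp2_ctrl the median of the same genes was -1.45, with 14 called lower (background 19.1% of all genes). The 3 LBD genes, repressors of nitrogen responses and of anthocyanin synthesis, shared the fall at nlp2_T0 and then differed. LBD39 had 55.9, 70.7 and 59.0 CPM in nlp2_T30 against 68.3, 54.5 and 62.5 CPM in nlp2_ctrl, with overlapping groups. Its log2 fold change was -0.01 ± 0.12, and it was held within 1.5-fold (adjusted p of the bound = 0.000385) after 6.79 ± 1.15 CPM in nlp2_T0. LBD38 had 90.2, 94.8 and 104 CPM in nlp2_T30 against 66.5, 48.6 and 61.7 CPM in nlp2_ctrl and was past that level by 0.71 ± 0.10. LBD37 had 271, 239.6 and 284 CPM in nlp2_T30 against 76.2, 57.7 and 79.9 CPM in nlp2_ctrl and was past it by 1.90 ± 0.09. Neither LBD37 nor LBD38 overlapped between groups.

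HRS1, a repressor of the GARP family that is induced by nitrate and limits NRT2 genes, had 32.0, 50.0 and 32.4 CPM in nlp2_T30 against 34.0, 26.9 and 33.1 CPM in nlp2_ctrl. The groups overlapped, and the gene was held within 1.5-fold at 0.27 ± 0.15 (adjusted p of the bound = 0.0473) after only 1.46 ± 0.112 CPM in nlp2_T0. This return was close to the threshold: without nlp2_T30 replicate 3 HRS1 was called higher at 0.40 (adjusted p = 0.0473). AT1G25550 and AT1G68670, annotated as myb-like transcription factor family proteins, were past the never-starved level by 1.11 ± 0.08 and 0.96 ± 0.08. BT2, a BTB and TAZ domain protein known to lower nitrate uptake, had 36.9, 37.6 and 37.1 CPM in nlp2_T30 against 27.0, 19.5 and 25.9 CPM in nlp2_ctrl (0.62 ± 0.12, adjusted p = 0.000401). It had been nearly silent in nlp2_T0 at 0.497 ± 0.162 CPM. BT5 remained below the never-starved level at -0.97 ± 0.14, BT1 was past it at 2.04 ± 0.25 and BT4 was held at 0.04 ± 0.16. CIPK3, a CBL-interacting protein kinase gene, was past it by 1.04 ± 0.08, TGA4 was higher by 1.35 ± 0.09 and TGA1 by 0.89 ± 0.11. bZIP3, a bZIP factor, was held within 1.5-fold at 0.13 ± 0.20.

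Glutaredoxin genes linked to nitrate showed incomplete returns. Of 8 genes, 1 was higher, 4 were lower, 1 was held and 2 were neither. Among all genes 23.5% were higher, 22.1% lower and 37.1% held. The median of the list was -0.48 in nlp2_T30 over nlp2_ctrl and -3.78 in nlp2_T0 over nlp2_ctrl. AT4G15680, one of a cluster on chromosome 4 annotated as thioredoxin superfamily proteins, averaged 2.03 ± 0.281 CPM in nlp2_T30, 5.60 ± 1.21 CPM in nlp2_ctrl and 0.105 ± 0.0949 CPM in nlp2_T0. Its difference from the never-starved level was -1.45 ± 0.26 (adjusted p = 0.000201). The neighbouring AT4G15690 differed by -1.16 ± 0.20, while AT4G15700 was held at -0.11 ± 0.14. The genes of this cluster are similar in sequence. Reads that fit several places equally well were removed before counting, so the levels of these genes are uncertain. AT2G47880, a glutaredoxin family gene, stayed above the never-starved level by 2.03 ± 0.17 and had not moved by a called amount since nlp2_T0. Without nlp2_T30 replicate 2 the number called lower was 2, and AT5G18600, at -0.43 ± 0.14 in the full set, was among those lost.

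Carriers of ammonium, urea and amino acids were mostly still raised. Of 14 tested, 8 were higher, 2 were lower and 3 were held (background 23.5%, 22.1% and 37.1%), with a median of 0.50. In nlp2_T0 over nlp2_ctrl 12 were called higher (background 19.0%). DUR3, the urea carrier, averaged 219 ± 22.2 CPM in nlp2_T30 and 53.0 ± 12.3 CPM in nlp2_ctrl (2.06 ± 0.09), and the amino acid permease AAP6 differed by 1.79 ± 0.08. AMT1.1, a main ammonium carrier, had 139.5, 176 and 187 CPM in nlp2_T30 against 146, 139 and 176 CPM in nlp2_ctrl and was held at 0.12 ± 0.09 after 342 ± 26.7 CPM in nlp2_T0. Without nlp2_T30 replicate 1 it was called higher at 0.23 (adjusted p = 0.0433). AMT1.2 was below the never-starved level at -0.73 ± 0.08. AMT1.5 had 258 reads in the 3 nlp2_T30 libraries and 3 in the 3 nlp2_ctrl libraries, or 90.2 times as many after scaling (95% interval from counting error alone, 30.5 to 440). Its fitted log2 fold change was 6.33 ± 0.45, with 7.16 without nlp2_ctrl replicate 1 and 5.74 without nlp2_ctrl replicate 3.

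Transcripts for photosynthesis remained low. All 25 genes tested were called lower in nlp2_T30 than in nlp2_ctrl (background 22.1%), with a median of -1.32. All 25 had also been lower in nlp2_T0 (median -1.04, background 19.1%). Between nlp2_T30 and nlp2_T0, 8 of them were called lower and none higher (background 12.6% lower). RBCS1A, a small subunit gene of Rubisco, had 3934, 3601 and 3763 CPM in nlp2_T30 against 11880, 9045 and 11080 CPM in nlp2_ctrl (-1.5 ± 0.08). LHCB1.1, a light-harvesting antenna gene of photosystem II, had 612, 493 and 679 CPM in nlp2_T30 against 4398, 2372 and 2787 CPM in nlp2_ctrl (-2.39 ± 0.16). The never-starved libraries spread widely for this gene, yet the groups did not overlap. RCA, which keeps Rubisco active, differed by -1.16 ± 0.08 and GAPB, of the Calvin cycle, by -1.35 ± 0.08. The summed level of the list ranged from 25500 to 29900 CPM in nlp2_T30 and from 60200 to 94000 CPM in nlp2_ctrl. The part of the near-identical RBCS and LHCB1 copies in these values is uncertain. In whole seedlings, fewer green cells and less RNA per green cell cannot be told apart.

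Of 16 markers of root tissue, 5 were higher, 1 was lower and 7 were held within 1.5-fold, with a median of 0.23. Among all genes 23.5% were higher, 22.1% lower and 37.1% held, so the higher and held counts lie near these shares. Without nlp2_ctrl replicate 2 the number higher was 2. Their summed level was 535 to 646 CPM in nlp2_T30 and 630 to 824 CPM in nlp2_ctrl. Among the defining markers, SCR and SHR of the root ground tissue were held at 0.01 ± 0.07 and 0.10 ± 0.08, and the endodermal CASP1 was held at 0.23 ± 0.11, although it was called higher at 0.33 (adjusted p = 0.0272) without nlp2_T30 replicate 2 and at 0.31 (adjusted p = 0.0425) without nlp2_ctrl replicate 1. The root hair regulator RHD6 was higher by 1.29 ± 0.14, and the aquaporin gene PIP2.2 was lower at -1.06 ± 0.12. The part of a shift in the balance of shoot and root in the photosynthesis result was not tested.

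Sulfate assimilation, which shares its demand for reductant with nitrate, was higher in 13 of 16 genes, with no gene lower. Among all genes 23.5% were higher and 22.1% lower. The median of the list was 1.52. The adenylylsulfate reductase genes, for the regulated step of the pathway, differed by 2.47 ± 0.25 (APR3), 2.12 ± 0.12 (APR1) and 1.83 ± 0.21 (APR2). APR1 averaged 409 ± 61.8 CPM in nlp2_T30 and 94.1 ± 8.18 CPM in nlp2_ctrl. SDI1, a marker of sulfur deficiency, had 23.0, 24.1 and 43.2 CPM in nlp2_T30 against 2.45, 2.06 and 1.36 CPM in nlp2_ctrl (3.96 ± 0.27). All SDI1 values in nlp2_T30 lay above those in nlp2_ctrl. The sulfate carrier gene SULTR4.1 differed by 1.29 ± 0.11, and SULTR2.1 was held at 0.07 ± 0.07.

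Touch, wounding and jasmonate genes were higher in 15 of 19 cases and lower in 2 (background 23.5% and 22.1%), with a median of 2.08. In nlp2_T0 over nlp2_ctrl, 4 of them were higher and 3 lower, with a median of 0.26. These counts lie near the shares of all genes there, 19.0% higher and 19.1% lower. CYP94C1, which breaks down active jasmonate, had 40.2, 57.3 and 83.4 CPM in nlp2_T30 against 2.08, 3.17 and 2.88 CPM in nlp2_ctrl (4.46 ± 0.28, adjusted p = 3.47e-08). CYP94B3, of the same pathway, differed by 3.69 ± 0.19, and the lipoxygenase gene LOX4, of jasmonate synthesis, by 3.21 ± 0.23. JAZ8, a jasmonate repressor gene, was higher by 4.55 ± 0.42. Against them ERF5 was lower at -2.39 ± 0.13. Such genes are also known to respond to handling, which cannot be told apart from nitrate here.

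Low-oxygen genes were higher in 10 of 13 cases and lower in none (background 23.5% and 22.1%), with a median of 1.2. The number higher was 7 without nlp2_ctrl replicate 1 and 8 without nlp2_ctrl replicate 3. Most of the list had been raised before nitrate, with 9 called higher in nlp2_T0 over nlp2_ctrl (median 1.05, background 19.0%). The median of nlp2_T30 over nlp2_T0 was -0.02. The alcohol dehydrogenase gene ADH1 averaged 315 ± 60.3 CPM in nlp2_T30, 133 ± 62.4 CPM in nlp2_ctrl and 304 ± 143 CPM in nlp2_T0. Its difference from nlp2_ctrl was 1.25 ± 0.36 (adjusted p = 0.0158), a call lost without nlp2_ctrl replicate 1 (0.97, adjusted p = 0.0686) and without nlp2_ctrl replicate 3 (1.1, adjusted p = 0.0621). HB1, a haemoglobin gene also known as nitrate-inducible, stood at 88.5 ± 4.53 CPM in nlp2_T30, 22.8 ± 2.15 CPM in nlp2_ctrl and 17.3 ± 6.67 CPM in nlp2_T0, and SRO5 was higher by 2.83 ± 0.20.

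Pigment genes did not move as one. Of 15 flavonoid genes tested, 6 were higher, 1 was lower and 6 were held within 1.5-fold, with a median of 0.42. Among all genes 23.5% were higher, 22.1% lower and 37.1% held, so the held count lies near its share. The anthocyanin regulators MYB90 and MYB75, the enzymes DFR, LDOX and UF3GT and the carrier gene GSTF12 were the 6 that were higher. Without nlp2_ctrl replicate 1 the calls of LDOX (0.92, adjusted p = 0.0535) and UF3GT (1.28, adjusted p = 0.0642) were lost. The values of both regulators depended on single never-starved libraries. MYB90 had 9.42, 4.87 and 7.02 CPM in nlp2_T30 against 0.320, 1.00 and 0.568 CPM in nlp2_ctrl, a difference of 3.47 ± 0.50 that lay between 2.88 without nlp2_ctrl replicate 1 and 4.06 without nlp2_ctrl replicate 2. It had stood at 34.3 ± 6.90 CPM in nlp2_T0 and had come down by a log2 change of -2.32 ± 0.31. DFR, the first enzyme of the anthocyanin branch, was higher by 2.45 ± 0.47, with 1.79 and 3.14 on leaving out the same libraries in turn. The early enzymes TT4 (chalcone synthase) and FLS1 were held at 0.05 ± 0.17 and 0.06 ± 0.15. MYB12, a flavonol regulator, was lower at -0.71 ± 0.18.

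Senescence, starch, phosphate and cytokinin genes are given by their counts, to be read beside the 23.5% higher and 22.1% lower among all genes. Of 13 senescence genes, 5 were higher and 5 lower, but the number lower was 3 without nlp2_T30 replicate 1, without nlp2_ctrl replicate 3 and without the replicate block. SAG21 was past the never-starved level at 2.34 ± 0.18 after a starvation change of -1.24 ± 0.17, and the regulator ORE1 was lower at -0.97 ± 0.18, a call lost without the replicate block (-0.91, adjusted p = 0.108). NAP, another regulator, averaged 12.6 ± 4.92 CPM in nlp2_T30, 18.8 ± 7.13 CPM in nlp2_ctrl and 52.9 ± 17.9 CPM in nlp2_T0. The groups overlapped, and its call at -0.62 ± 0.22 (adjusted p = 0.0345) was lost on leaving out any 1 of the 6 libraries other than nlp2_ctrl replicate 1 (-0.41 to -0.70) and without the replicate block (-0.60, adjusted p = 0.248). Of 14 starch and sugar genes, 8 were higher and 2 lower. The number higher was 5 with the 6 compared libraries alone. It was 6 with the 9 nlp2 libraries alone and 6 without nlp2_ctrl replicate 2. GPT2, a plastid glucose phosphate carrier, was higher by 2.29 ± 0.30, and the sugar exporter gene SWEET12 was lower at -0.99 ± 0.11. Phosphate starvation genes gave 6 higher and 7 lower of 16, with the membrane lipid gene MGD3 at 2.94 ± 0.18 and the xylem phosphate exporter PHO1 at -1.0 ± 0.10. Of 15 cytokinin genes, 3 were higher and 3 lower, shares below the 23.5% and 22.1% of all genes. IPT3, the nitrate-inducible enzyme of cytokinin synthesis, had 31.0, 35.7 and 28.3 CPM in nlp2_T30 against 13.7, 16.2 and 16.2 CPM in nlp2_ctrl (1.05 ± 0.12), whereas the response regulator ARR16 was lower at -1.42 ± 0.21.

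Genes of growth and timing are read against all genes, of which 37.1% were held within 1.5-fold, 23.5% were higher and 22.1% lower. Of 14 cell cycle genes, 9 were held and 5 were lower, among them the cyclin gene CYCB1.1 at -0.66 ± 0.19. The number lower was 2 without nlp2_T30 replicate 2, without the replicate block and with the 6 compared libraries alone, and 3 without nlp2_ctrl replicate 1 or 2. Of 14 genes of nucleolar ribosome biogenesis, 10 were held and 3 were higher, or 5 without nlp2_ctrl replicate 2, with NUC2, a nucleolin, at 1.25 ± 0.17. The clock list of 14 genes had 6 held, 3 higher and 1 lower, or 2 to 4 lower without nlp2_T30 replicate 1 or 2 or nlp2_ctrl replicate 1 or 2, with LUX at 0.89 ± 0.13 and TOC1 at 0.61 ± 0.10. Since age differs between the groups, a list of genes for seedling age and phase change was examined as well. Of 16 tested, 4 were higher, 3 were lower (5 without nlp2_ctrl replicate 2), 4 were held and 5 were neither. The higher and lower counts of this list lie near the shares of all genes. SNZ, a floral repressor of the AP2 family, averaged 31.5 ± 7.18 CPM in nlp2_T30 and 6.50 ± 0.384 CPM in nlp2_ctrl (2.27 ± 0.14), and had been at 5.12 ± 0.728 CPM in nlp2_T0. SPL3, which promotes the adult phase and is known to rise with age, was lower at -1.89 ± 0.31.

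Beyond the lists, the largest differences among called genes with a symbol in the reference, a mean of at least 5 CPM in one group and no overlap included HAK5, a high-affinity potassium carrier, with 41.5, 38.0 and 36.4 CPM in nlp2_T30 against 1.55, 1.00 and 1.14 CPM in nlp2_ctrl (4.97 ± 0.23). GolS4, a galactinol synthase gene, differed by 5.20 ± 0.29 and ACD6, a regulator of defence and cell death, by 4.92 ± 0.46. The ACD6 values spread from 17.1 to 48.1 CPM in nlp2_T30, all above the 0.80 to 1.45 CPM of nlp2_ctrl. On the lower side DLAH, an acylhydrolase gene, had 1.36, 2.15 and 1.88 CPM in nlp2_T30 against 22.3, 27.6 and 34.7 CPM in nlp2_ctrl (-3.92 ± 0.36). AT1G65970, annotated as thioredoxin-dependent peroxidase 2, had 18.4, 17.7 and 17.0 CPM in nlp2_T30 against 219, 179 and 268 CPM in nlp2_ctrl (-3.64 ± 0.19). WRKY49 was lower at -3.21 ± 0.29, GLP4, a germin-like protein gene, at -3.18 ± 0.21, the cyclin gene CYCP2;1 at -2.83 ± 0.16 and BBX17, a B-box protein gene, at -2.78 ± 0.26. OEP6, of the plastid outer envelope, was lower at -2.85 ± 0.13. LHB1B1, an antenna gene of photosystem II, was lower at -3.60 ± 0.55, with -3.19 without nlp2_ctrl replicate 1 and -4.02 without nlp2_ctrl replicate 2.

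To ask how far resupply had undone starvation, the 1734 genes (8.12% of those tested) were taken that differed at least 2-fold and by a call between nlp2_T0 and nlp2_ctrl. Both comparisons use the same nlp2_ctrl libraries, so the counts describe these libraries and are no independent evidence of one another. A call took precedence over the bound, so a gene called different counts as away or past even where it lay within 1.5-fold. Of 915 genes lowered by starvation, 752 (82.2%) were still called lower in nlp2_T30, 42 (4.59%) were past the never-starved level, 23 (2.51%) were held within 1.5-fold of it and 98 (10.7%) were undecided. Of 819 genes raised by starvation, 687 (83.9%) were still called higher, 7 (0.855%) were past, 15 (1.83%) were held and 110 (13.4%) were undecided. Among the lowered genes still away, 59 had moved toward the never-starved level since nlp2_T0 by a call, 89 had moved further from it and 604 had no call. Among the raised genes still away, 166 had moved toward it, 61 further from it and 460 had no call. The median log2 fold change of nlp2_T30 over nlp2_ctrl was -1.31 for all lowered genes and 1.2 for all raised genes, against medians of -1.34 and 1.41 for the same genes in nlp2_T0 over nlp2_ctrl. With a bound of 2-fold in place of 1.5-fold, 129 genes were held and 117 undecided.

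**Figure D3:**
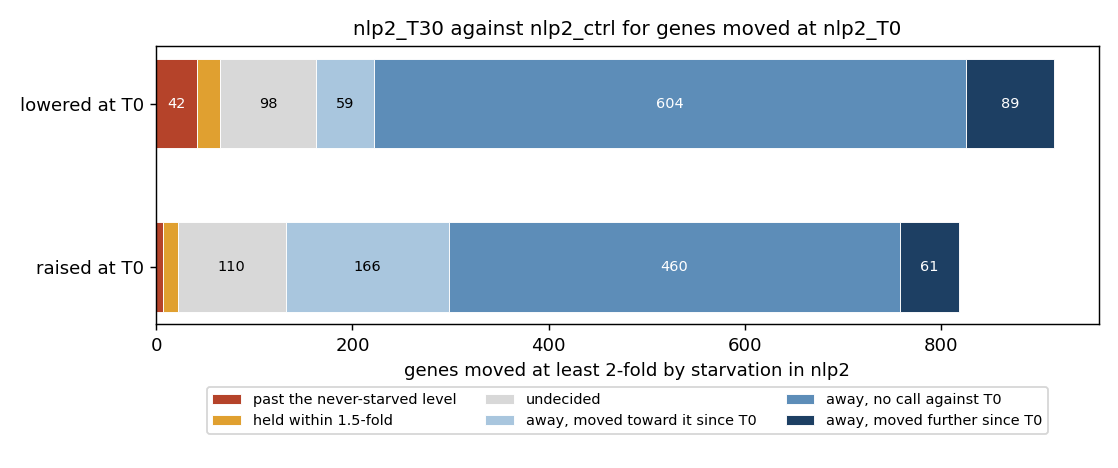
Numbers of genes moved at least 2-fold by starvation in nlp2 (nlp2_T0 against nlp2_ctrl), divided by their state in nlp2_T30 against nlp2_ctrl. Most genes of either direction remained away, 752 of 915 lowered and 687 of 819 raised.

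Genes with a symbol in the reference and a mean of at least 5 CPM in nlp2_T0 or nlp2_ctrl were ranked by starvation change in each class. Apart from HRS1 and LBD39, those held near the never-starved level included MYB15, a regulator of lignin and cold responses, at -0.12 ± 0.18 and the trehalose phosphate synthase gene TPS9 at -0.03 ± 0.10. TPS9 had 51.7, 54.9 and 65.8 CPM in nlp2_T30 against 57.4, 53.2 and 64.9 CPM in nlp2_ctrl, with overlap, after 19.0 ± 2.39 CPM in nlp2_T0. From above came PUT4, a polyamine carrier gene, at 0.16 ± 0.10, the metacaspase gene MC6 at 0.15 ± 0.17, MYB61, a stomatal regulator, at -0.06 ± 0.23 and OZF1, a zinc finger gene, at -0.07 ± 0.17. MC6 was called higher at 0.46 (adjusted p = 0.0161) without nlp2_ctrl replicate 1. Past the never-starved level, besides NIR1, BT1, BT2, LBD38 and CIPK3, were PMT6, a carrier of the polyol and monosaccharide family, at 1.3 ± 0.29, TPPB, a trehalose phosphate phosphatase gene, at 0.76 ± 0.14 and ACA4, a calcium pump gene of the vacuole, at 0.75 ± 0.07. ACA4 had 151, 186 and 179 CPM in nlp2_T30 against 94.1, 98.0 and 113 CPM in nlp2_ctrl, without overlap. Still far above were CYP716A2, a cytochrome P450 gene of triterpene metabolism, at 5.16 ± 0.26 and ChlAKR, a chloroplast reductase of reactive aldehydes, at 4.55 ± 0.33. BIP3, a chaperone gene of the endoplasmic reticulum stress response, was above by 4.56 ± 0.72. MYB75 was above by 3.98 ± 0.56, with 3.39 without nlp2_ctrl replicate 1 and 4.70 without nlp2_ctrl replicate 3. It had 1.55, 1.42 and 1.08 CPM in nlp2_T30 against 0.0533, 0.0556 and 0.131 CPM in nlp2_ctrl, so this value rests on few reads. The level of CYP716A2 was 6.2, 7.80 and 4.80 CPM in nlp2_T30 against 0.213, 0.222 and 0.0874 CPM in nlp2_ctrl, after 27.1 ± 5.54 CPM in nlp2_T0.

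**Figure D4:**
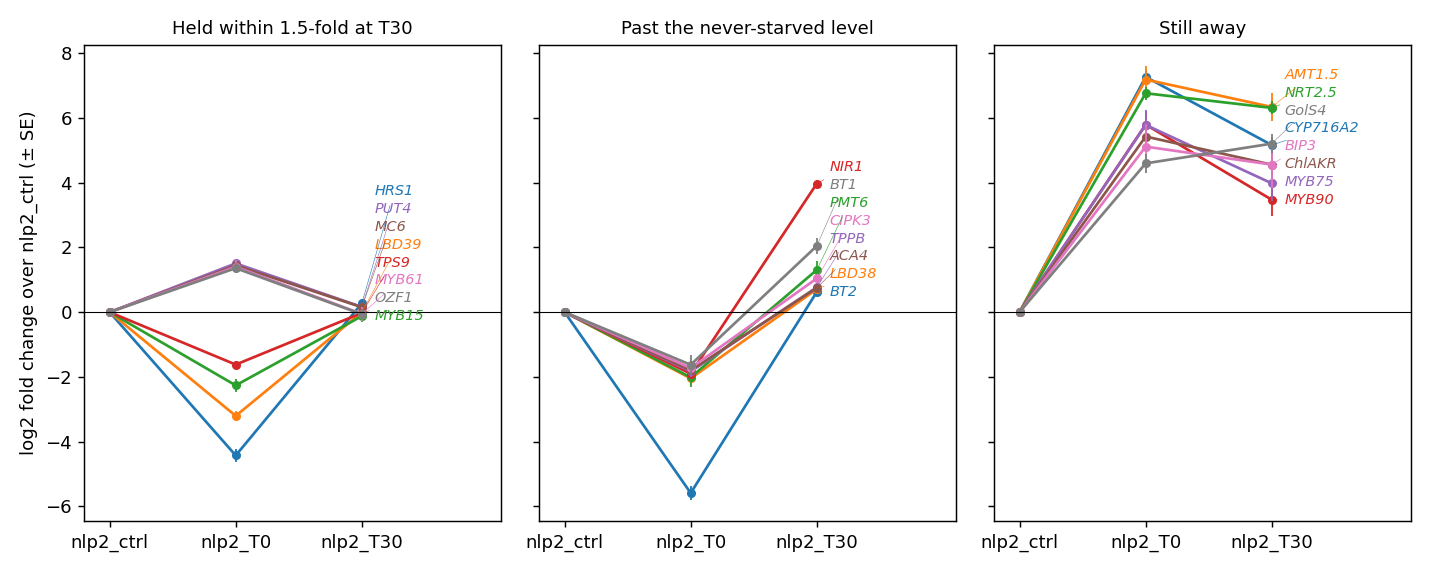
Log2 fold change over nlp2_ctrl (± SE) in nlp2_T0 and nlp2_T30 of the 8 genes in each class with the largest starvation change, among genes with a symbol in the reference and a mean of at least 5 CPM in nlp2_T0 or nlp2_ctrl, with nlp2_ctrl at 0. NIR1 ends at 3.97 and BT2 at 0.62 above the never-starved level, HRS1 and LBD39 end near 0, and NRT2.5 stays at 6.31. The AMT1.5 values rest on 3 reads in nlp2_ctrl, and MYB75 had 0.0533 to 0.131 CPM there.

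Many called differences lay in genes that starvation had not moved 2-fold. Of these 19613 genes, 4287 (21.9%) were higher and 3964 (20.2%) lower in nlp2_T30 than in nlp2_ctrl. The set holds most of the 21347 genes tested, so its shares lie near the 23.5% and 22.1% of all genes. The calls in nlp2_T30 have no minimum size, unlike the starvation change. Among the 13205 genes with no starvation call at all, 2270 (17.2%) were higher and 1551 (11.7%) lower. NIA1, NIA2, G6PD2, AT5G41670, RFNR1, RFNR2 and SLAH3 are of this last kind, with log2 starvation changes between -0.14 for NIA1 and 0.18 for RFNR2.

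Whether this state is particular to nlp2 was asked with the difference between genotypes, T30 over ctrl in nlp2 minus T30 over ctrl in Col-4. It was called for 11 of 21347 genes (0.0515%), 2 higher (0.00937%) and 9 lower (0.0422%) in nlp2. CRK6, a cysteine-rich receptor-like kinase gene, had 8.74, 9.43 and 11.9 CPM in nlp2_T30 against 1.81, 2.39 and 2.58 CPM in nlp2_ctrl, a rise of 2.14 ± 0.18. In Col-4 the same gene had 1.45, 1.2 and 1.53 CPM in Col4_T30 against 2.26, 1.68 and 1.5 CPM in Col4_ctrl, a value of -0.39 ± 0.23, and the difference was 2.53 ± 0.30 (adjusted p = 0.00229). NF-YA2, a transcription factor subunit gene known from nutrient starvation, differed by -0.68 ± 0.08 (adjusted p = 0.00229): it was higher by 0.75 ± 0.06 in nlp2 and by 1.43 ± 0.06 in Col-4. FD3 rose in both genotypes, by 2.71 ± 0.07 in nlp2 and by 3.25 ± 0.07 in Col-4, a difference of -0.54 ± 0.09 (adjusted p = 0.029). The other 8 called genes have no symbol in the reference, and among them were the peroxidase family genes AT2G38390 (-0.83 ± 0.12) and AT2G35380 (-1.01 ± 0.16), both with a smaller rise in nlp2. AT5G55450, of a lipid transfer protein family, had a value of -0.04 ± 0.14 in nlp2 and was lower in Col-4 at -1.25 ± 0.15. Of the genes with a symbol named by p-value, HMA2, a zinc pump gene, with 1.03 ± 0.20 (adjusted p = 0.0793), WAK2, a wall-associated kinase gene, with 0.76 ± 0.16 (adjusted p = 0.119), and CYP72C1, of brassinosteroid breakdown, with -0.75 ± 0.14 (adjusted p = 0.0601), were not called. The 2 genotypes share no control libraries. The number of calls changed with the libraries and tool: 2 without the replicate block and 70 with DESeq2, 5 without nlp2_T30 replicate 2, 7 without nlp2_ctrl replicate 1 and 4 without nlp2_ctrl replicate 3. Among the wild type libraries it was 24 without Col4_T30 replicate 1, 5 without Col4_T30 replicate 2 or 3, 4 without Col4_ctrl replicate 1 and 2 without Col4_ctrl replicate 2. CRK6 and NF-YA2 kept their calls on leaving out each of 15 libraries in turn (all but Col4_T0) and without the replicate block, while FD3 kept its call in 7 of the 15 and lost it without the block.

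**Figure D5:**
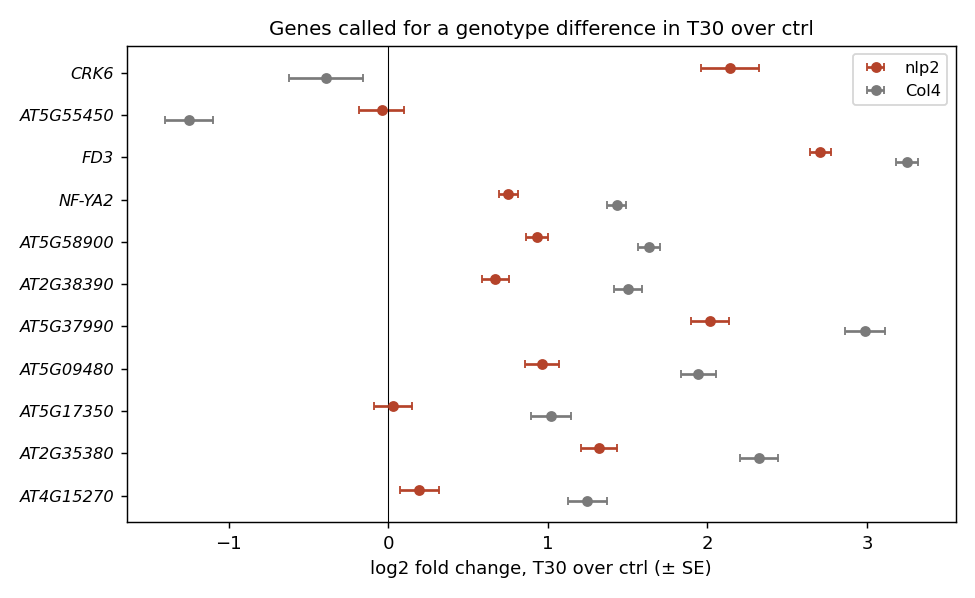
Log2 fold change of T30 over ctrl (± SE) in nlp2 and in Col4 for the 11 genes called for a genotype difference. CRK6 (2.53) and AT5G55450 (1.21) are higher in nlp2 relative to Col4, and the other 9 are lower.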

How the data were processed

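Transcripts of whole seedlings were measured by single-read sequencing of poly(A) RNA from stranded libraries, per the labels' protocols. The deposited files hold raw read counts per gene model. Reads were aligned to TAIR10 with Bowtie2, per the submitters' processing notes, and sam2pkm counted the reads left once those hitting several places equally well had been dropped, per the file headers. That removal lowers the counts of near-identical genes. Versions, annotation and use of strand in counting: not given in the sources used here. Therefore overlapping antisense genes cannot be told apart.

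All 18 libraries (14684639 to 25545031 counted reads) were fitted together with edgeR 4.0.16 (R 4.3.3): TMM scaling, filterByExpr (minimum count 10, minimum total 15), 6 group means with the replicate number as a block, and robust quasi-likelihood F-tests with 10 residual degrees of freedom. This kept 21347 of 33602 gene models. P-values were adjusted by Benjamini-Hochberg over all genes. A pair of one-sided tests from the same fit asked whether a fold change lay within 1.5-fold. CPM values use TMM-scaled library sizes and are not compared between genes. Intervals and floors from counts cover counting error only.

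Replicate numbers pair the nlp2 libraries because the labels give each number 1 planting date in all nlp2 groups. The correlations of same-numbered deviations from the group means were 0.111, 0.093 and 0.075, against -0.153 to 0.099 for differently numbered libraries, so the pairing rests on the labels' dates. For some Col4 libraries dates are not used here, and they were blocked by number. No 2 libraries of a group agreed within sampling noise (chi-square per gene of 6.56 or more).

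Names, products and sequences come from the RefSeq annotation (TAIR10.1), which matched 32835 of 33602 identifiers. The genes named were NLP family members, the 8 largest called changes without overlap in each direction, up to 4 called and 2 held members of each list, the 8 largest starvation changes in each class, and the 3 smallest p-values of the genotype difference in each direction. The rules by size and p-value took only genes with a symbol in the reference, and those by size only means of at least 5 CPM. Other list members were named after their values were seen. Members and gene lists were chosen with earlier results of these data known. Alternatives were no replicate block, RLE scaling, no filter, fewer libraries, DESeq2 1.42.0, each nlp2_T30 and nlp2_ctrl library left out in turn, a 2-fold bound, and a fold test against 1.5. Leaving out each nlp2_T0, Col4_T30 and Col4_ctrl library was added after seeing the data. The functions were tested on simulated data.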

Additional observations from a re-analysis of the deposited data

Results flagged for a closer look

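The response of T30 over ctrl differed between nlp2 and Col4 for 11 of 21347 genes (edgeR quasi-likelihood F-test of the interaction, adjusted p below 0.05), which drew attention because the same contrast gave unlike values in the 2 genotypes. CRK6 differed by 2.53 on the log2 scale, with all 3 nlp2_T30 libraries above all 3 nlp2_ctrl libraries and no call in Col4. NF-YA2 differed by -0.68, and FD3 by -0.54. Both were higher in T30 than in ctrl in each genotype, by less in nlp2. FD3 lost its call in 8 of 15 fits that left out 1 library.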

How the results depend on the processing

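The counts of higher and lower genes, of genes held near the never-starved level and of each class were within 1.5 times their reported values under every alternative run, except those given here. With the 6 compared libraries alone, 3281 genes were higher. Against a fold of 1.5, 1371 were higher and 1453 lower. With a 2-fold bound, 129 genes were back and 117 undecided. The genotype difference gave 2 genes with no replicate block and 70 with DESeq2, which left 3311 adjusted p-values undefined; the cause was not tested. Each nlp2_T30 and nlp2_ctrl library was left out in turn, and, as a choice made after seeing the data, so was each nlp2_T0, Col4_T30 and Col4_ctrl library. Over these 15 fits the genotype difference gave 2 to 24 genes, higher genes numbered 4229 to 5174, lower genes 4130 to 4970, held genes 7431 to 8414, genes still away 1202 to 1526, back 31 to 44, past 43 to 56 and undecided 190 to 305. Without the replicate block 4182 genes were higher, 4061 lower and 8149 held, with 28 back, 47 past, 1387 away and 234 undecided. Among the 155 genes chosen by rule, the calls of ORE1, CYCA1.1 and CYCB1.2 were lost there, and NAP, named later, also lost its call. Of 116 called genes among the 155, 106 kept their call in all 21 fits run per gene, and no value reversed. The fold test against 1.5 is not among these fits and called 91 of the 116.

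With 3 libraries in a group, 3688 genes were neither called nor held, and low-count genes such as AMT1.5 rest on few reads. Age, starvation, handling and nitrate cannot be told apart from these groups.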
